A study of Cucumis sativus with 6 samples.

Results

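In phloem dissected from young cucumbers, 157 of the 15720 genes in the deposited table (0.999%) had their highest scores in fruit, intermediate scores in stalk and their lowest in pedicle, with each step more than 2-fold. They were chosen on the organ means of the deposited scores plus 5. The fruit value had to exceed 2 times the stalk value, and the stalk value 2 times the pedicle value. Both fruit libraries had to lie above both stalk libraries, both stalk libraries above both pedicle libraries, and the fruit mean had to be at least 50. The choice used every library, so the order of the organs and the minimum size of the steps are properties of the selection. The values below describe these genes, and no comparison of the organs over them is offered as a test.

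Fruit, stalk and pedicle phloem each had 2 libraries, 6 in all; per the series' design text they are biological replicates. All 3 groups came from Cucumis sativus inbred line 9930 and from the same stage, 3 days after anthesis (flower opening), and the labels record no treatment and no engineered allele in any of them. Phloem was cut by laser microdissection from sections of fixed and embedded organ pieces, and its RNA was amplified before sequencing. The labels do not say where stalk ends and pedicle begins, or whether the material of several plants was pooled, so "step" refers here to expression and not to a position along the organ. Because the table pairs its identifiers with no gene names or products, the label "phloem" was not checked against marker genes, and the stepwise genes are given by identifier without a role.

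Phloem is the conducting tissue that carries sugars, amino acids and signalling molecules from leaves to growing organs. Its sieve elements are living cells without a nucleus, and the adjoining companion cells supply them with proteins and load or unload solutes. In stems and stalks phloem mainly transports, whereas in a growing fruit it releases its contents to the surrounding tissue. Cucurbits carry much of their carbon as oligosaccharides of the raffinose family, which are broken down to simpler sugars around the site of unloading. A young cucumber fruit is a strong sink in which cells divide and enlarge rapidly after pollination. In dissected tissue, fewer cells of a type and less RNA per cell cannot be told apart.

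Scores are in TPTM, the authors' unit, taken as a share of 10000000 per library because the 6 columns summed to between 9991842 and 9995581. They are normalised and rounded, so the sequencing depth behind a score is unknown and no counting interval is given. No correction for gene length is recorded, so a score compares a gene between organs and does not rank transcripts of different genes by number. The fruit libraries listed 159 and 161 genes at 0, the stalk libraries 89 and 103, and the pedicle libraries 510 and 306.

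The stepwise genes spanned a wide range of scores in each organ. Their median was 248 and 227 TPTM in fruit, 76 and 78 TPTM in stalk and 10 and 13 TPTM in pedicle. Over all genes in the table the median differed little between organs, at 143 and 158 TPTM in fruit, 140 and 131 TPTM in stalk and 128 and 133 TPTM in pedicle. The typical stepwise gene was thus above the median of the table in fruit and below it in stalk and pedicle. The fruit minimum leaves out low fruit scores, and the required steps lower the stalk and pedicle scores. This placing therefore follows in part from the selection and is no finding. The organ means ran from 53 to 43557.5 TPTM in fruit, from 9 to 18942.5 TPTM in stalk and from 0 to 7231 TPTM in pedicle. By fruit mean, 69 genes lay between 50 and 200 TPTM, 62 between 200 and 1000, 19 between 1000 and 5000 and 7 at 5000 or more.

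**Figure D1:**
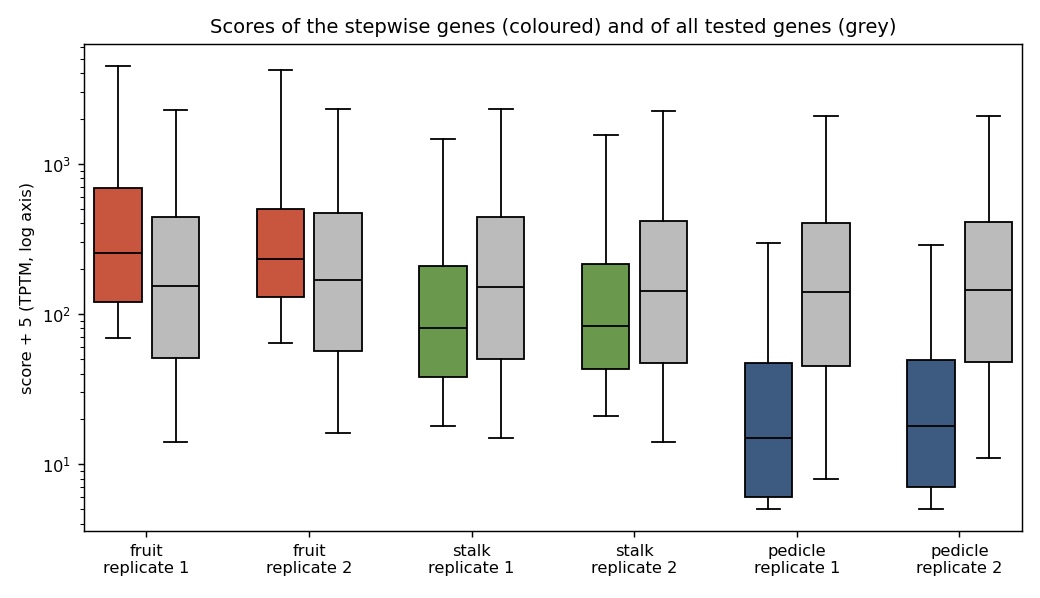
Scores plus 5 (TPTM, log axis) of the 157 stepwise genes (coloured) and of the 15381 tested genes (grey) in each library. Boxes span the middle 50% of genes with the median as a line, and whiskers reach the 5th and 95th percentiles; the coloured boxes drop from fruit through stalk to pedicle while the grey boxes stay level.

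Summed, the stepwise genes made up a small part of each library. They held 1.85% and 1.86% of all scores in fruit, 0.574% and 0.633% in stalk and 0.199% and 0.137% in pedicle. The replicates of an organ lay closer to each other than to another organ. With ordered libraries and 2-fold steps required of each gene, this is largely built in and is no finding. Csa3G878200 and Csa3G333840, the genes with the highest fruit scores, supplied much of this sum. Without them the share was 1.25% and 1.16% in fruit, 0.339% and 0.417% in stalk and 0.0809% and 0.0755% in pedicle.

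The step between stalk and pedicle was the larger one in most of these genes. The selection used both steps and the pedicle score is the denominator of this ratio, so this is only a description. With 5 added to each organ mean, the median ratio was 2.79 for fruit over stalk (range 2.005 to 23.3), 3.65 for stalk over pedicle (2.03 to 98.8) and 12.3 for fruit over pedicle (4.29 to 284.6). Of the 157 genes, 13 were listed at 0 in both pedicle libraries and enter these ratios only through the added 5. Over the other 144 genes the median was 3.36 for stalk over pedicle and 11.2 for fruit over pedicle. Stalk over pedicle was the larger step in 102 genes and fruit over stalk in 55. A step of more than 4 times was found only between stalk and pedicle in 56 genes, only between fruit and stalk in 21, at both steps in 10 and at neither in 70. Steps of more than 10 times numbered 4 for fruit over stalk and 21 for stalk over pedicle.

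**Figure D2:**
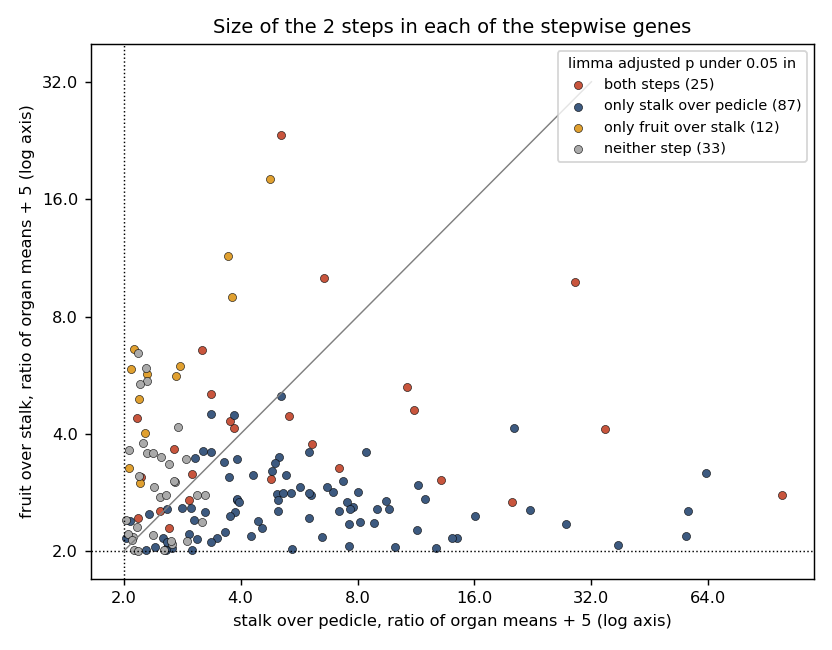
Each point is 1 of the 157 stepwise genes, placed by its ratio of stalk over pedicle (x) and of fruit over stalk (y), both from organ means plus 5 on log axes; dotted lines mark the 2-fold limits of the selection and the grey line equal steps. Colours give the steps called by limma. Points spread along the x axis to 98.8, whereas 4 genes exceed 10 on the y axis.

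Csa4G154320 and Csa4G617410 had the largest overall contrast. Csa4G154320 had 1892 and 1513 TPTM in fruit, 142 and 196 TPTM in stalk and 1 TPTM in both pedicle libraries. Csa4G617410 had 1717 and 1854 TPTM in fruit, 475 and 799 TPTM in stalk and 2 and 1 TPTM in pedicle. Both genes were close to 0 in pedicle, and in both all 3 organs were well apart. Csa4G154320 divided its contrast into 9.81 times between fruit and stalk and 29 times between stalk and pedicle. Csa4G617410 had 2.79 times between fruit and stalk and 98.8 times between stalk and pedicle, which placed it first of all stepwise genes for the excess of the stalk-over-pedicle step.

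Csa1G479110 followed in that order. It had 969 and 497 TPTM in fruit, 309 and 355 TPTM in stalk and 0 and 2 TPTM in pedicle. Its stalk libraries lay close together and far above pedicle, and its fruit libraries differed by almost as much as fruit and stalk did. The ratio was 2.19 for fruit over stalk and 56.2 for stalk over pedicle.

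Very low pedicle scores were common among the stepwise genes. A pedicle mean under 5 TPTM was found in 52 of them (33.1%), against 1.02% of the 11603 genes in the table with a fruit mean of at least 50 TPTM; low pedicle scores follow from the selection, so this contrast is no finding. Of the 157 genes, 20.4% and 12.1% were listed at 0 in pedicle replicates 1 and 2, where 3.24% and 1.95% of the whole table were. The pedicle libraries had more zeros over the whole table than the other organs did, and the part of this in the low pedicle scores was not tested. The 13 genes listed at 0 in both pedicle libraries had fruit means of 53 to 716.5 TPTM (median 97.5) and stalk means of 9 to 279 TPTM (median 34). The selection required a fruit mean of at least 50 TPTM of them, and most of their stalk scores were low.

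The steps are also given by pedicle score, which is both a value the selection used and the denominator of the stalk-over-pedicle ratio, so a larger ratio at low scores is built in. In the 52 genes with a pedicle mean under 5 TPTM the median ratio was 2.94 for fruit over stalk and 6.03 for stalk over pedicle, and 37 of them had the larger step between stalk and pedicle. In the 71 genes with a pedicle mean of 5 to 50 TPTM the medians were 2.79 and 3.09 for the same steps. In the 29 genes of 50 to 500 TPTM they were 2.57 and 2.58. Stalk over pedicle was the larger step in 20 of the 34 genes with a pedicle mean of at least 50 TPTM. In the 5 genes with pedicle means of 500 TPTM or more the medians were reversed, at 3.11 for fruit over stalk and 2.59 for stalk over pedicle.

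At the other end, Csa3G778180 and Csa3G026150 had the largest excess of the fruit-over-stalk step. Csa3G778180 had 970 and 326 TPTM in fruit, 28 and 18 TPTM in stalk and 0 and 1 TPTM in pedicle, with 23.3 times between fruit and stalk and 5.09 times between stalk and pedicle. Csa3G026150 had 908 and 112 TPTM in fruit, 9 and 38 TPTM in stalk and 1 TPTM in both pedicle libraries, with ratios of 18.1 and 4.75. Both genes had low scores outside fruit, but their fruit replicates were far apart. The limma log2 difference of fruit over stalk was 4.37 ± 0.54 (SE) for Csa3G778180, which turned into 3.59 when fruit replicate 1 was left out and 5.15 when fruit replicate 2 was. For Csa3G026150 it was 3.74 ± 0.84, with 2.25 on leaving out fruit replicate 1 and 5.22 on leaving out fruit replicate 2. Csa2G361700, singled out after its values were seen, also had low scores outside fruit, with closer fruit replicates. It had 305 and 407 TPTM in fruit, 24 and 38 TPTM in stalk and 0 and 1 TPTM in pedicle. Its steps were more alike, at 10.03 times between fruit and stalk and 6.545 times between stalk and pedicle.

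Some stepwise genes kept a high score in all 3 organs. Csa3G878200 had the highest fruit score, with 46953 and 40162 TPTM in fruit, 20164 and 17721 TPTM in stalk and 9050 and 5412 TPTM in pedicle. Each of its steps was modest, at 2.30 times for fruit over stalk and 2.62 times for stalk over pedicle. Csa3G333840 had 13452 and 29231 TPTM in fruit, 3343 and 3916 TPTM in stalk and 2723 and 737 TPTM in pedicle. Its stalk libraries lay just above the higher pedicle library and far below both fruit libraries. Its limma log2 difference of stalk over pedicle was 1.35 ± 0.52 (SE), which became 2.29 without pedicle replicate 1 and 0.41 without pedicle replicate 2. Csa4G432970, singled out after its values were seen, combined a high fruit score with a large contrast. It had 19786 and 22195 TPTM in fruit, 3238 and 6977 TPTM in stalk and 161 and 124 TPTM in pedicle, so that fruit over stalk was 4.11 times and stalk over pedicle 34.7 times.

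In other genes the steps were nearly equal. Csa3G006640 had 424 and 640 TPTM in fruit, 210 and 198 TPTM in stalk and 77 and 75 TPTM in pedicle, with 2.57 times between fruit and stalk and 2.58 times between stalk and pedicle. Csa7G368730 had 319 and 241 TPTM in fruit, 161 and 96 TPTM in stalk and 33 and 84 TPTM in pedicle, with ratios of 2.14 and 2.10. The libraries of Csa3G006640 formed 3 separate groups, whereas in Csa7G368730 the lower stalk and the higher pedicle library nearly met. Csa5G636450 had even and well separated steps: 6519 and 6956 TPTM in fruit, 1434 and 1809 TPTM in stalk and 504 and 331 TPTM in pedicle. Its limma log2 differences were 2.06 ± 0.26 (SE) for fruit over stalk and 1.97 ± 0.26 for stalk over pedicle.

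**Figure D3:**
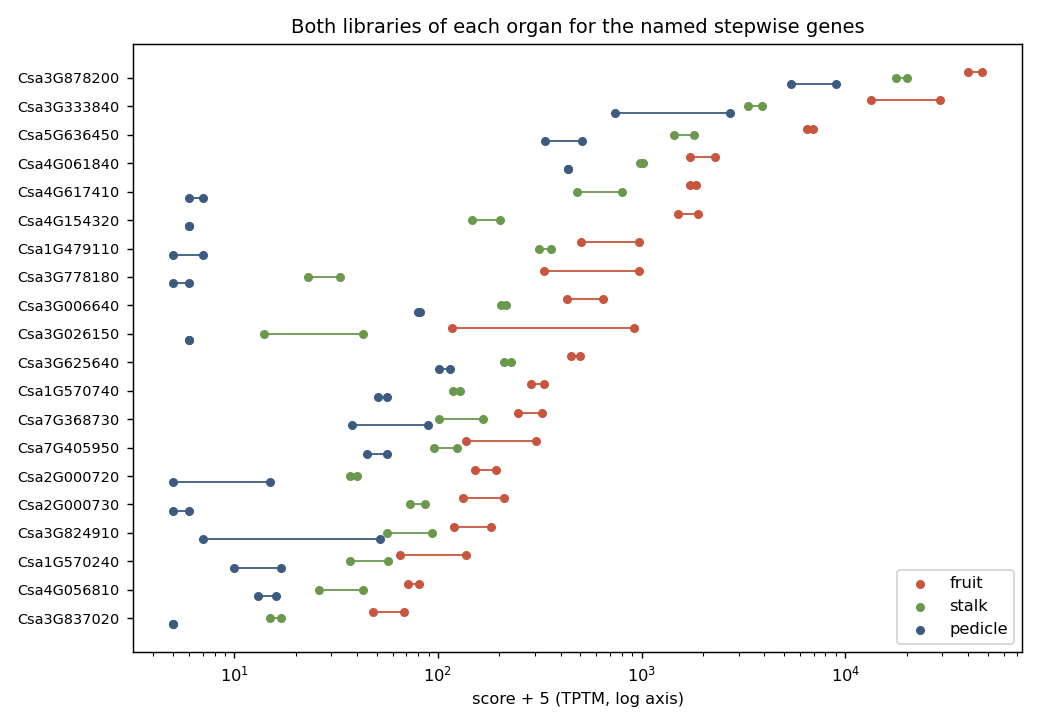
Scores plus 5 (TPTM, log axis) of the stepwise genes named by rule, ordered by fruit mean, with both libraries of each organ joined by a line. In each gene the fruit points lie right of the stalk points and these right of the pedicle points; the long lines of Csa3G026150 in fruit and Csa3G824910 in pedicle mark replicates that are far apart.

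How far each step stood out from the spread between replicates was described with limma, fitted to log2(TPTM + 5) in the 15381 genes that reached 10 TPTM in 2 or more libraries. All 157 stepwise genes passed this filter. With p-values adjusted by Benjamini-Hochberg over all tested genes and a threshold of 0.05, all 157 were called higher in fruit than in pedicle, where 15.1% of tested genes were. Between fruit and stalk 37 (23.6%) were called higher in fruit, where 1.23% of tested genes were. Between stalk and pedicle 112 (71.3%) were called higher in stalk, where 8.88% of tested genes were. The selection used these same contrasts, so nothing is read from the counts against those backgrounds. The median limma log2 difference was 3.64 for fruit over pedicle, 1.47 for fruit over stalk and 1.89 for stalk over pedicle in the stepwise genes, against 0.21, 0.12 and 0.07 over all tested genes.

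Both steps were called in 25 of the 157 genes, against 0.176% of tested genes. In 87 genes only stalk over pedicle was called, in 12 only fruit over stalk, and in 33 neither step was called although the whole contrast of fruit over pedicle was. The median fruit mean was 1604 TPTM in the 25 genes and 137 TPTM in the 33. The median difference between replicates on the log2 scale was 0.23 in fruit, 0.34 in stalk and 0.48 in pedicle for the 25 genes, against 0.40, 0.27 and 0.94 for the 33. The 25 genes thus had closer replicates in fruit and pedicle and wider ones in stalk; since the spread between replicates enters the calls, this is a description of the split. Of the 34 genes with a pedicle mean of at least 50 TPTM, 11 were among the 25.

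The count of 25 depended on single libraries. On leaving out a fruit library it was 5 (replicate 1) and 4 (replicate 2), on leaving out a stalk library 0 and 3, and on leaving out a pedicle library 60 and 69, in the same order of replicates. Without stalk replicate 1, the median limma log2 difference of the 157 genes was 1.38 for fruit over stalk and 1.94 for stalk over pedicle. With all libraries these medians were 1.47 and 1.89. The selection used the same contrasts and libraries, so the medians only describe the genes. The 37 genes called between fruit and stalk became 6 and 7 without fruit replicates 1 and 2, 0 and 3 without stalk replicates 1 and 2, and 92 and 93 without pedicle replicates 1 and 2. The 112 called between stalk and pedicle numbered 43 when stalk replicate 1 was left out and 34 when stalk replicate 2 was. The spread is shared by the 3 organs and was widest in pedicle; its part in these counts was not tested. Beyond the 25, another 2 genes of the table were called at both steps. Csa3G740210 and Csa5G202370 were left out of the stepwise genes because stalk over pedicle was 1.90 and 1.96 times in them.

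Scaling moved the direction of the calls over all tested genes. Of the genes called between fruit and pedicle, 66.6% were higher in fruit as deposited, 52.7% after scaling with trimmed mean of M-values (TMM) factors and 51.1% after quantile normalisation. Between fruit and stalk, 189 genes were called higher and 264 lower in fruit as deposited (41.7% higher), 140 and 333 with TMM factors (29.6%) and 202 and 362 with quantile normalisation (35.8%). Under quantile normalisation the calls thus increased in both directions. Between stalk and pedicle 67.7%, 62% and 58% were higher in stalk under these settings. The median log2 difference of fruit over pedicle over all tested genes was 0.21, 0.03 and -0.01, so the typical tested gene was itself slightly higher in fruit as deposited. In the stepwise genes the median of fruit over pedicle was 3.64, 3.53 and 3.23.

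Replicates of the stepwise genes differed somewhat more than those of the tested genes as a whole. The median difference between replicates on the log2(TPTM + 5) scale was 0.41 in fruit, 0.32 in stalk and 0.49 in pedicle, against 0.38, 0.27 and 0.45 over all tested genes. Replicates were more than 2 times apart in 29 stepwise genes in fruit, 9 in stalk and 40 in pedicle, and more than 4 times apart in 6, 0 and 9. In 88 genes no organ had replicates more than 2 times apart. The widest replicate difference of a gene was in pedicle for 73 genes, in fruit for 53 and in stalk for 31. Stalk was the most repeatable organ of the stepwise genes by each of these measures. The counts were not worked out over all tested genes, and the medians were compared without matching genes by score.

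The widest replicate differences of all were in Csa3G026150 in fruit, with the 908 and 112 TPTM given above, and in Csa3G824910 in pedicle. Csa3G824910 had 115 and 177 TPTM in fruit, 89 and 51 TPTM in stalk and 2 and 47 TPTM in pedicle. Its lower stalk library and higher pedicle library were almost equal, and neither step was called. Csa2G384430, singled out after its values were seen, had 877 and 6264 TPTM in fruit, 530 and 765 TPTM in stalk and 434 and 123 TPTM in pedicle, so its fruit mean rests on replicate 2.

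A stricter description asks whether each step exceeded 2 times in every pair of libraries. It rereads the values that the selection used. No share over all tested genes was worked out, so nothing is read from the counts. With 5 added, the lower fruit library exceeded 2 times the higher stalk library in 77 genes, and the lower stalk library exceeded 2 times the higher pedicle library in 110. Both held in 53 of the 157 genes. Csa4G154320 was among them, with at least 7.55 times between any fruit and any stalk library and 24.5 times between any stalk and any pedicle library. Csa3G878200 fell just short at both steps, with 1.99 and 1.96 times.

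The replicates of an organ did not lie evenly to each side. In fruit, replicate 1 was above replicate 2 in 57.3% of the stepwise genes, against 40.7% of all tested genes. In stalk, replicate 1 was above replicate 2 in 35% of the stepwise genes, against 56.8% of all tested genes. In both organs the stepwise genes thus leaned to the other replicate than the table did. In pedicle, replicate 1 was above replicate 2 in 61 stepwise genes, below it in 74 and equal to it in 22. The 61 were 38.9% of the stepwise genes, against 44.9% of all tested genes. The genes of a library move together, and no test was made of these shares.

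The selection was then repeated on 1 library per organ and read in the libraries it had not used. The same rule on the replicate 1 libraries took 226 genes, of which 112 were among the 157. In the replicate 2 libraries, 181 of the 226 (80.1%) were again ordered with fruit above stalk above pedicle, against 29.2% of the 11357 genes with a score of at least 50 TPTM in fruit replicate 1. Both steps exceeded 2 times again in 69 (30.5%), against 1.47% of those genes. Among these 226 genes the order was usually found again, and the size of both steps less often. They overlap the 157 only in part, and the 11357 were not matched for any difference between organs. The shares therefore describe the 226 genes and are no test of the 157. Stalk over pedicle exceeded 2 times in 75.7% of the 226 genes and fruit over stalk in 42%, against 13.1% and 12.8% of the 11357.

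The reverse choice gave a similar result. The rule on the replicate 2 libraries took 182 genes, of which 93 were among the 157. In the replicate 1 libraries 138 (75.8%) were in the same order, against 26.2% of the 11682 genes with at least 50 TPTM in fruit replicate 2, and both steps exceeded 2 times in 64 (35.2%), against 1.59%. Steps were smaller in the libraries not used for the choice. For the genes chosen on replicate 1, the median log2 ratio of fruit over stalk was 0.86 in replicate 2 and 1.48 in replicate 1, and that of stalk over pedicle was 1.78 in replicate 2 and 2.00 in replicate 1. For those chosen on replicate 2, the medians were 1.10 in replicate 1 and 1.34 in replicate 2 for fruit over stalk, and 1.42 in replicate 1 and 1.68 in replicate 2 for stalk over pedicle. In all 4 of these readings the step was smaller in the libraries that had played no part in the choice. Choosing genes for large steps in 1 replicate favours smaller steps in the other, so this decrease is no finding.

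**Figure D4:**
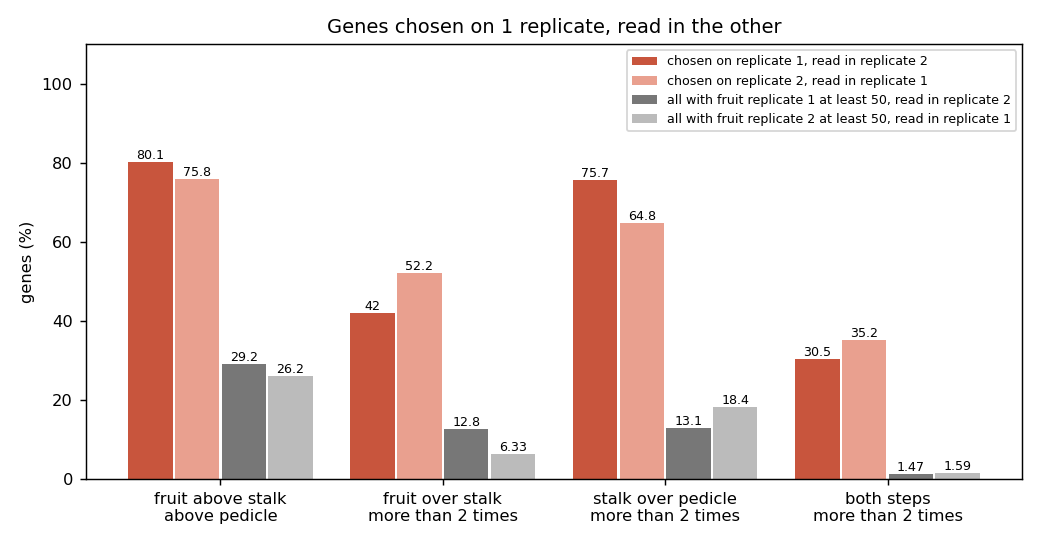
Share of genes (%) that met each condition in the replicate not used to choose them, for the 226 genes chosen on replicate 1 and the 182 chosen on replicate 2 (red shades), and for all genes with at least 50 TPTM in the fruit library of the choosing replicate (grey shades). The order of the organs was found again in 80.1% and 75.8% of the chosen genes, and both steps over 2 times in 30.5% and 35.2%.

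With the organs put in each of the 6 possible orders, the same rule found most genes in the orders that place stalk between the other organs. It took 157 genes for fruit above stalk above pedicle and 111 for pedicle above stalk above fruit. The orders with fruit in the middle held 51 genes, with stalk highest, and 14, with pedicle highest, and those with pedicle in the middle held 3, with fruit highest, and 6, with stalk highest. Which of the orders with stalk in the middle held more genes depended on scaling. TMM factors gave 124 genes for fruit above stalk above pedicle and 139 for the opposite order, and quantile normalisation gave 108 and 139. Libraries of the 3 organs did not overlap, in the order fruit above stalk above pedicle and without regard to size, in 9% of tested genes.

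**Figure D5:**
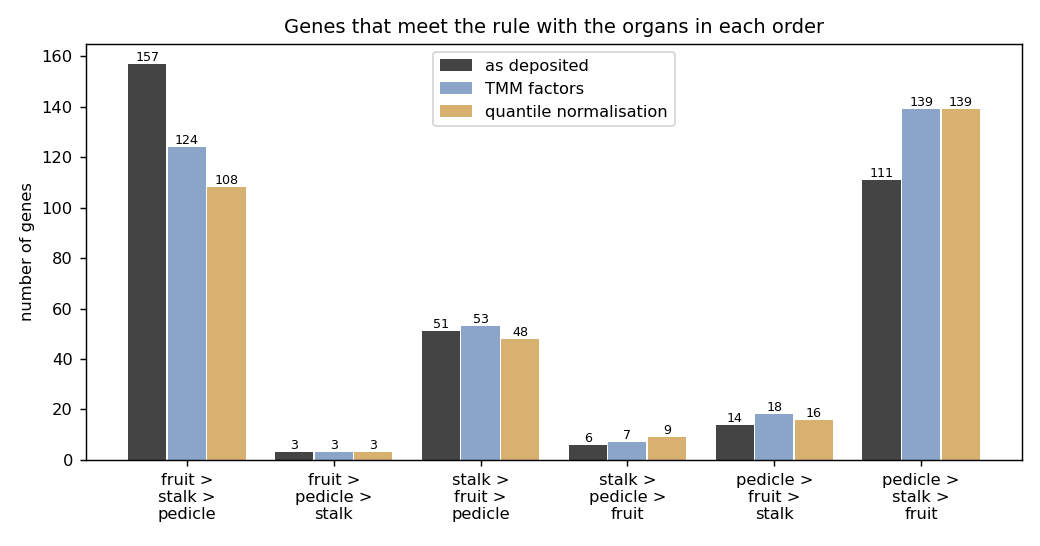
Number of genes that meet the rule, with its 2-fold steps, ordered libraries and a mean of at least 50 TPTM in the highest organ, for each order of the organs and under 3 scalings. The orders with stalk in the middle hold the most genes, 157 and 111 as deposited, and their ranking turns over under both other scalings.

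Genes also lay just outside the limits of the selection. All conditions but the fruit minimum were met by 35 further genes, all but the stalk-over-pedicle step by 99, all but the fruit-over-stalk step by 284, and all but the order of the libraries by 9. The size of the fruit-over-stalk step was therefore the condition that alone kept out the most genes. Nearest inside the fruit-over-stalk limit was Csa7G405950 at 2.005 times, with 299 and 132 TPTM in fruit, 91 and 119 TPTM in stalk and 51 and 40 TPTM in pedicle. Nearest outside was Csa4G063980 at 1.97 times, with 94 and 99 TPTM in fruit, 43 and 50 TPTM in stalk and 14 and 11 TPTM in pedicle. The gene left out had the closer fruit replicates.

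At the stalk-over-pedicle limit, Csa3G625640 lay just inside at 2.03 times, with 443 and 492 TPTM in fruit, 223 and 205 TPTM in stalk and 110 and 96 TPTM in pedicle. Csa4G006140 lay on the limit at exactly 2 times and was left out, with 68 and 42 TPTM in fruit, 2 and 8 TPTM in stalk and 0 TPTM in both pedicle libraries. At the fruit minimum, Csa3G837020 had 63 and 43 TPTM in fruit (mean 53), 12 and 10 TPTM in stalk and 0 TPTM in both pedicle libraries. Csa1G042340, with 33 and 65 TPTM in fruit (mean 49), 8 and 4 TPTM in stalk and 0 TPTM in both pedicle libraries, was left out. At each limit, the organs of the gene left out were ordered as in the gene taken in.

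The stepwise genes were spread over the genome. The digit after "Csa" in an identifier names the chromosome, and by this reading chromosome 3 held 33 of the genes (21% of them, and 21% of the table), chromosomes 2, 4 and 6 held 23 each, chromosome 1 held 20, chromosome 7 held 19 and chromosome 5 held 16. Per 100 genes in the table this came to between 0.777 on chromosome 5 and 1.23 on chromosome 7. None was among the 68 genes with identifiers of unplaced sequence. The identifiers therefore show no single chromosome that holds most of these genes. No coordinates are given because no annotation of the table's own build was used.

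In the order of the identifiers listed in the table, 4 pairs of stepwise genes stood next to each other, and no run was longer than a pair. Genes that the table does not list may lie between them. No number of pairs to compare with was worked out, so nothing is read from this count. Csa2G000720 had 187 and 147 TPTM in fruit, 35 and 32 TPTM in stalk and 0 and 10 TPTM in pedicle, and its neighbour Csa2G000730 had 205 and 128 TPTM in fruit, 68 and 81 TPTM in stalk and 1 and 0 TPTM in pedicle. Csa2G000720 had the larger ratio between fruit and stalk (4.47, against 2.16 in Csa2G000730) and Csa2G000730 the larger one between stalk and pedicle (14.5, against 3.85 in Csa2G000720). Csa1G570240 had 133 and 60 TPTM in fruit, 52 and 32 TPTM in stalk and 5 and 12 TPTM in pedicle, and Csa1G570740 had 282 and 325 TPTM in fruit, 124 and 114 TPTM in stalk and 46 and 51 TPTM in pedicle. Csa4G056810 had 66 and 76 TPTM in fruit, 21 and 38 TPTM in stalk and 11 and 8 TPTM in pedicle, and Csa4G061840 had 2280 and 1728 TPTM in fruit, 1009 and 974 TPTM in stalk and 432 and 429 TPTM in pedicle. In this last pair the ratios were alike, at 2.20 and 2.02 for fruit over stalk and 2.38 and 2.29 for stalk over pedicle. Genes that resemble each other in sequence can share reads, and how the authors' counting treated such reads is not given in the sources used here. Whether the genes of any of these pairs resemble each other was not tested.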

How the data were processed

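Laser-dissected phloem of fruit, stalk and pedicle was profiled by RNA sequencing in 2 libraries per organ. The submitters' processing notes name TopHat and HTSeq; versions, genome build and annotation were not given in the sources used. The table deposited by the authors lists 15720 genes and, for each library, a score (TPTM) that they scaled to about 10000000 and rounded, so no count model was used. Every gene in it reached a mean of 10 TPTM in some organ.

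Each column matched 1 library by its label. None of the identifiers (0 matched, also ignoring punctuation) occurs in the RefSeq table of 23999 cucumber genes, so word lists of pathways and cell types could not be applied, and no sequences are shown.

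Scores were analysed as log2(TPTM + 5) for 15381 genes that reached 10 TPTM in 2 or more libraries. One limma 3.58.1 model (R 4.3.3; a term per organ, all 6 libraries, intensity trend, 3 residual and 7.76 prior degrees of freedom) gave standard errors and Benjamini-Hochberg adjusted p-values. Genes were called at an adjusted p under 0.05. Ratios use organ means plus 5 and understate the change of low scores. The selection and the limma fit were tested on simulated data. Alternatives were pseudocounts, filters, scalings, the fit's terms and each library left out; the TMM factors trimmed 30% of ratios and 5% of levels at each end, without weights.

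The stepwise genes, lists and tests were chosen with earlier results of these data known. The text names 2 genes for each property described (overall ratio, fruit mean, excess of either step, equal steps, smallest adjusted p over both steps, widest replicate difference), the first 3 pairs of neighbouring identifiers and the genes next to each limit; others are marked.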

Additional observations from a re-analysis of the deposited data

How the results depend on the processing

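The number of stepwise genes stayed within 1.5 times 157 under several alternatives. It was 175 with a pseudocount of 1, 192 with no fruit minimum, 124 with TMM factors and 108 with quantile normalisation. With 1 library left out it was 160 to 202. Further from 157 were 94 with a pseudocount of 20 and 474 with each step over 1.5 times. So were 37 with each step over 3 times and 88 with a fruit minimum of 200 TPTM. The genes were not all the same ones: 121 of the 157 were taken again without fruit replicate 1 and 141 without pedicle replicate 2, the fewest and the most for a library left out. Both scalings, both pseudocounts and every left-out library kept 57 of the 157, of which 23 were called at both steps.

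The 25 genes called at both steps became 39 with a pseudocount of 20, 12 without the intensity trend, 57 with only the organs compared in each fit, and 0 to 69 with 1 library left out. Over all tested genes, those called higher in fruit than in pedicle (2315) became 1509 with only these organs and 1100 to 2603 with 1 library left out. Those called higher in fruit than in stalk (189) became 57 without the trend, 547 with only these organs and 7 to 527 with 1 library left out. Those called higher in stalk than in pedicle (1366) became 353 to 1824 with 1 library left out. The other alternatives stayed within 1.5 times; for the changes the cause was not tested. Fits that leave 1 library in an organ take its spread from the remaining organs.

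A replicate block, with the number as a term in the fit, gave 2066, 133, 1223 and 22 genes for fruit over pedicle, fruit over stalk, stalk over pedicle and both steps. Differences between replicates correlated across genes at -0.0487 between fruit and pedicle, 0.0103 between fruit and stalk and -0.117 between stalk and pedicle. Whether libraries of different organs were paired, by these numbers or by others, was not tested. With the pedicle numbers crossed, an alternative chosen after seeing the data, the counts were 2435, 269, 1421 and 32. For the 20 genes named by rule, the selection largely fixes the direction of the steps, so their signs say nothing of stability. Of 637 values over the alternatives, 84 lost a call and 33 gained one. The fruit-over-stalk call was lost under 8 alternatives each in Csa4G617410 and Csa3G878200 and under 1 in Csa4G154320. Depth is unknown, so how far counting error limits the low pedicle scores cannot be stated.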
